A study of Mus musculus with 4 samples.

Results

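The transcription factors that set and keep T lymphocyte identity were followed in RNA of whole mouse heart. The set holds 7 genes, Satb1, Tcf7, Lef1, Gata3, Ikzf1, Ets1 and Myb, of the 8251 genes named on the array, and its members were taken as every probe set that the annotation gives to one of these symbols alone. By this rule 6 of the 7 genes had 10 probe sets, and Tcf7 was not analysed here. Hearts came from heterozygous mice and from wild-type mice, with 2 pools of each genotype, each pool made of 5 hearts. Per the labels, all animals of both genotypes were adult males of 8 to 16 weeks on a 129/Black Swiss background. The labels number the pools but do not say that they came from separate groups of animals, so the p-values measure only the spread between these 4 samples.

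A T cell precursor arriving in the thymus is committed by factors that act in sequence and together. Signals through Notch switch on Tcf7 and Gata3, Lef1 acts beside Tcf7, and Ikaros (Ikzf1), Ets1 and Myb, which are shared with other blood cells, act on the antigen receptor genes and on the survival and division of the precursors. Satb1 folds thymocyte chromatin into loops that bring distant regulatory elements to their genes. The structural T cell genes are those such factors act on: the CD3 chains that carry the receptor signal, the CD4 and CD8 coreceptors and other surface proteins. Ets1 is also known from blood vessels.

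The windows before the start sites of these regulators and of the structural genes were set side by side for their number of CpG, and 4 are shown because they lie at the ends of that count or belong to members with a single annotated start. Each is the 250 bases before a start annotated by RefSeq on GRCm38.p6, written 5′ to 3′ on the strand of the gene, with every CpG in capitals. They belong to Myb (chr10:21160985-21161234, minus strand), Gata3 (chr2:9878601-9878850, minus strand), Cd3d (chr9:44981536-44981785, plus strand) and Cd8a (chr6:71373177-71373426, plus strand). Myb and Gata3 are the members with 1 annotated start, and Cd3d and Cd8a were chosen after their sequences were seen, as the structural genes without a CpG.
Myb: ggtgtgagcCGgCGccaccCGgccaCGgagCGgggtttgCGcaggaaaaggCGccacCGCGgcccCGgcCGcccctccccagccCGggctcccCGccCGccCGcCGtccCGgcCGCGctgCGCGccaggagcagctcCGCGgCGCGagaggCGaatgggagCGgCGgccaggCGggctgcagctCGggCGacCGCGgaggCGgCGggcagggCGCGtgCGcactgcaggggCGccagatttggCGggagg
Gata3: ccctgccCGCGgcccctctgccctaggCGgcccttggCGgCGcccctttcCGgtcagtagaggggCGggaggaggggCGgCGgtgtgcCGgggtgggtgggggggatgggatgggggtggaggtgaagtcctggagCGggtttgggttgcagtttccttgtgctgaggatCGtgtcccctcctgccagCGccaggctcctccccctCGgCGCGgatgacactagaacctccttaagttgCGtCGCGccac
Cd3d: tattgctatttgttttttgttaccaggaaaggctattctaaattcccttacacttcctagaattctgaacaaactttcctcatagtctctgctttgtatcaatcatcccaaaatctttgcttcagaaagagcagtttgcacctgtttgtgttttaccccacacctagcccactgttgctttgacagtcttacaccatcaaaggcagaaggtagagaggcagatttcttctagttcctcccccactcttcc
Cd8a: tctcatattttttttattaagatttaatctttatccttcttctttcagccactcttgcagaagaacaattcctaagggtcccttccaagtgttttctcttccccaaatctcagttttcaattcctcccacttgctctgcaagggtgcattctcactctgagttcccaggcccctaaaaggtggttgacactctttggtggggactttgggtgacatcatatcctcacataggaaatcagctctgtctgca
The Myb window held 40 CpG and the Gata3 window 19, against 0 in both the Cd3d and the Cd8a window. The motif searched was CG, which reads the same on both strands. Windows were found for 5 of the tested members, 13 in all because some genes have several starts, and for 9 of the tested structural genes, with 1 each. Every one of the 5 members had at least 1 window with 10 or more CpG: the highest count was 44 for Ikzf1, 41 for Satb1, 40 for Myb, 19 for Gata3 and 14 for Lef1. Other starts of the same genes were poor in CpG, down to 1 for Ikzf1, 3 for Satb1 and 5 for Lef1. In all, 7 of 13 member windows (53.8%) held 10 or more CpG, against 0 of 9 structural windows, where the count ran from 0 to 7. Of all 32851 windows, 37.8% held 10 or more, and 10871 of 27025 genes had at least 1 such window. A gene with several starts has more chances of such a window, and each structural gene had only 1. This is a description of the letters in these windows, and the array does not tell which start was used.

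**Figure D1:**
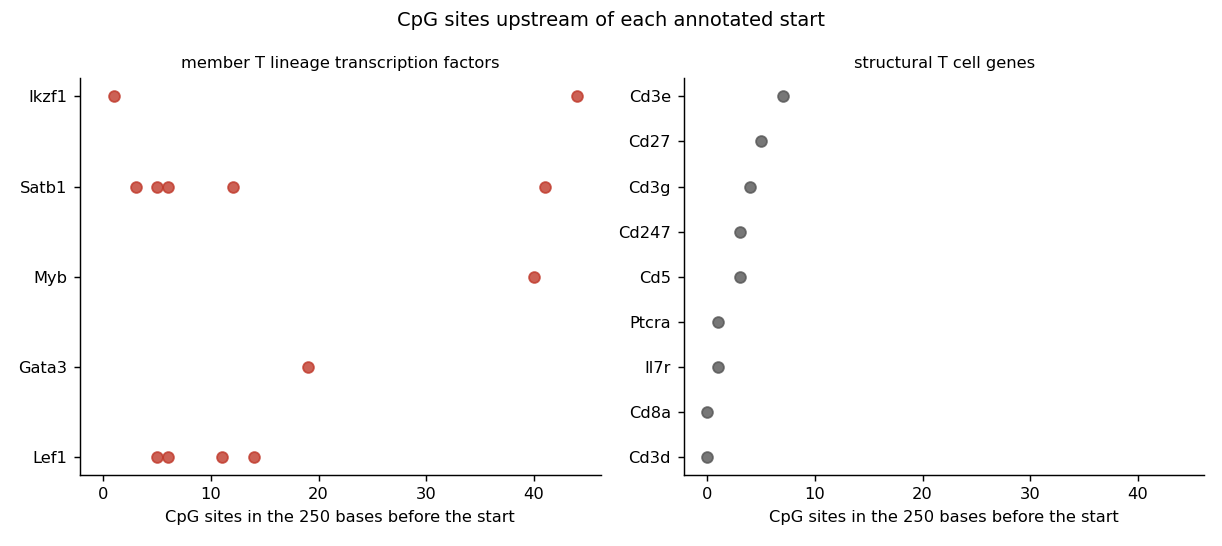
Number of CpG sites in the 250 bases before each annotated start, for the member transcription factors (left panel, red) and the structural T cell genes (right panel, grey) with a window in the RefSeq table, 1 point for each start. Each member has a start with at least 14 CpG, and no structural gene exceeds 7.

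All 6 members that were measured had lower signals in the heterozygous pools, by 3.42-fold to 8.50-fold on the brightest probe set of each gene. Signals are linear intensities of a probe set, and a fold change is taken on the log2 scale as heterozygous minus wild type. Of the 10 member probe sets, 8 were bright enough to be tested, and all 8 fell (limma across 7453 probe sets, Benjamini-Hochberg adjusted p at most 6.6e-04, threshold 0.05). Of all tested probe sets 20.4% fell by the same test. In each of the 8, every heterozygous pool lay below every wild-type pool, as in 35.5% of all tested probe sets; pools were apart in either direction in 70.1%. The filter on dim probe sets asked for a mean of at least 349 over the 4 pools, and the Gata3 and Ikzf1 probe sets passed it through the wild-type pools only, so this count describes the probe sets and does not measure how often members fall. In RNA of a whole organ, fewer cells of a type and less RNA per cell cannot be told apart.

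**Figure D2:**
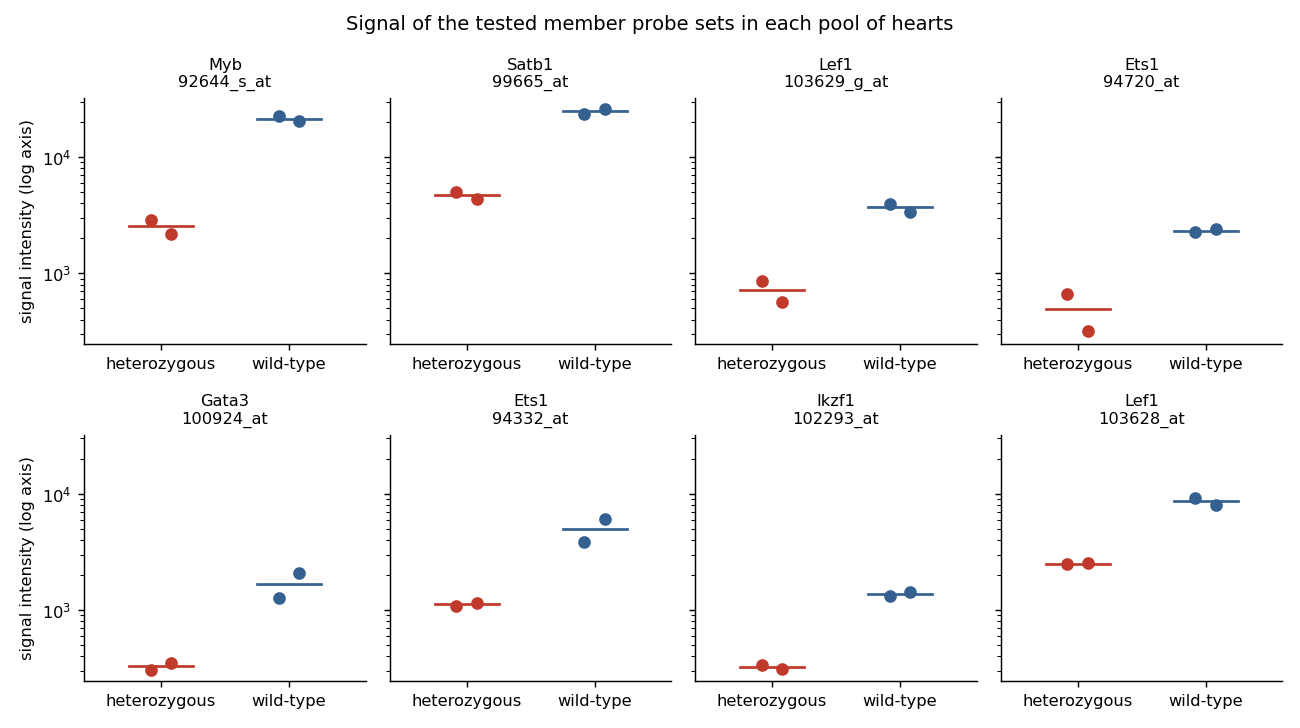
Signal intensity (log axis) of the 8 tested member probe sets in the heterozygous pools (red, left) and the wild-type pools (blue, right); each point is 1 pool of 5 hearts and each bar the mean of 2 pools. In every panel both heterozygous pools lie below both wild-type pools, and the gap is widest for Myb.

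Satb1, the chromatin organiser, had signals of 4998 and 4386 in heterozygous pools 1 and 2, against 23664 and 25929 in wild-type pools 1 and 2. The heterozygous pools retained 18.9% of the wild-type mean. The fall was 5.29-fold (log2 change -2.40, SE 0.14, limma adjusted p = 1.2e-05), and it ranked 171st from the lowest of the 7453 log2 changes.

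Lef1 encodes an HMG box factor that bends DNA and, with beta-catenin, carries Wnt signals to its targets. Its brighter probe set (103628_at) had signals of 2476 and 2546 in the heterozygous pools, against 9236 and 7961 in the wild-type pools. Its dimmer probe set (103629_g_at) had signals of 855.5 and 568.7 in the heterozygous pools, against 3979 and 3400 in the wild-type pools. Both probe sets put all heterozygous values below all wild-type values, with a fall of 3.42-fold on the brighter one (log2 change -1.77, SE 0.15, limma adjusted p = 5.9e-05) and 5.27-fold on the dimmer one (log2 change -2.40, SE 0.22, limma adjusted p = 1.0e-04).

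Gata3, a zinc finger factor needed for T cell commitment and later for the CD4 lineage, had signals of 306 and 347.9 in the heterozygous pools, against 1263 and 2069 in the wild-type pools. The wild-type pools differed more from each other than the heterozygous pools did, and wild-type pool 1 was the lower. The fall was 4.96-fold (log2 change -2.31, SE 0.28, limma adjusted p = 3.7e-04).

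Ikzf1 encodes Ikaros, a zinc finger protein that sets lymphoid fate and holds back division. Probe set 102293_at had signals of 336.3 and 311.6 in the heterozygous pools, against 1310 and 1416 in the wild-type pools. That is a fall of 4.21-fold (log2 change -2.07, SE 0.23, limma adjusted p = 2.4e-04), with 23.8% of the wild-type mean retained. A dimmer Ikzf1 probe set (102294_at), below the filter, had signals of 34.1 and 339.5 in the heterozygous pools, against 416.5 and 446.2 in the wild-type pools. The 2 heterozygous pools stood far apart on it, and with no filter it did not pass (log2 change -1.96, limma adjusted p = 0.440).

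Ets1 encodes the founding member of the ETS factors and acts in T, B and natural killer cells. Probe set 94332_at had signals of 1090 and 1150 in the heterozygous pools, against 3880 and 6110 in the wild-type pools. Probe set 94720_at had signals of 662.4 and 318.8 in the heterozygous pools, against 2275 and 2390 in the wild-type pools. The pool that stood off differed between them: wild-type pool 1 was low on the first and heterozygous pool 2 on the second. The falls were 4.35-fold (log2 change -2.12, SE 0.22, limma adjusted p = 1.8e-04) and 5.07-fold (log2 change -2.34, SE 0.31, limma adjusted p = 6.6e-04).

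Myb, a factor of dividing blood precursors and immature thymocytes, had the largest fall of the members. Probe set 92644_s_at had signals of 2875 and 2201 in the heterozygous pools, against 22409 and 20414 in the wild-type pools. The heterozygous pools retained 11.9% of the wild-type mean, a fall of 8.50-fold (log2 change -3.09, SE 0.17, limma adjusted p = 8.6e-06) that ranked 71st from the lowest. A second Myb probe set (162411_f_at) had signals of 35.7 and 7.7 in the heterozygous pools, against 22.5 and 17 in the wild-type pools, all below the floor of 36.25 and therefore without a measurable change.

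The calls of the dimmer Ets1 probe set and of Gata3 ended when dim probe sets were kept in the table (limma adjusted p = 0.0743 and 0.0505, with log2 changes of -2.34 and -2.31). No other alternative that was run, including each pool left out in turn, ended any of the 8 calls, although Ikzf1 was not tested under the stricter filter.

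Structural T cell genes fell in the same pools. Of 26 genes on that list, 21 were on the array and 17 had a tested probe set, and all 17 fell, 16 of them at least 2-fold. Their median log2 change was -2.53, or 5.77-fold, beside a median of -2.21, or 4.64-fold, for the 6 members and of 0.00 for all tested probe sets. Of all tested probe sets, 20.4% fell and 11.7% fell at least 2-fold. Cd8b1, the CD8 beta chain, had signals of 770.2 and 581.5 in the heterozygous pools, against 27217 and 21097 in the wild-type pools, a log2 change of -5.16 (SE 0.19). Cd3d, a CD3 chain of the receptor complex, had signals of 1066 and 861.7 in the heterozygous pools, against 9993 and 12569 in the wild-type pools, a log2 change of -3.55 (SE 0.18). Cd8a and Cd3g had log2 changes of -3.51 and -3.25. The smallest falls were those of Cd6, a surface receptor (log2 change -0.85 on its brightest probe set and -2.98 on the dimmer one), and of Cd7 (-1.48). The dimmer Cd6 probe set passed the filter on dim probe sets through the wild-type pools only. The signals summed over the 17 structural genes were 14317 and 14124 in the heterozygous pools, against 110224 and 100932 in the wild-type pools, which leaves 13.5% of the wild-type sum. The sum over the 6 members left 18.3%.

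Whether a member changed by another amount than the structural genes was tested by subtracting, on every array, the mean log2 signal of the 17 structural genes (brightest probe set of each) and fitting all probe sets again. On that scale 0 means a change equal to the structural mean of -2.70. Of the 8 member probe sets 3 passed as falling less than that mean and 5 did not pass. The size of the mean depends on the filter: 3 of the 17 structural genes, Il7r, Ly9 and Ptcra, passed it through the wild-type pools only, and with no filter the mean of 21 structural genes was -2.43, so that every member difference was smaller or further below 0. By the same test 97.1% of all tested probe sets differed from the structural mean, and 96.5% of all tested lay above it, with a smaller fall or a rise, so adjusted and unadjusted p-values are almost the same here. The 17 structural genes themselves differed among each other: 5 lay above and 4 below their own mean.

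The brighter Lef1 probe set lay furthest above, at a log2 difference of 0.92 (95% interval 0.56 to 1.29, limma adjusted p = 2.0e-04), or 0.65 with no filter (limma adjusted p = 0.00380). Relative to the structural mean, its log2 signal was 2.11 and 2.09 in the heterozygous pools, against 1.20 and 1.15 in the wild-type pools. The dimmer Lef1 probe set was at 0.30 (interval -0.23 to 0.83, limma adjusted p = 0.247) and its pools were at 0.58 and -0.076 in heterozygous mice, against -0.012 and -0.081 in wild-type mice. The difference between the Lef1 probe sets was not tested. Ikzf1 was at 0.62 (interval 0.044 to 1.20, limma adjusted p = 0.0386) and the brighter Ets1 probe set at 0.58 (interval 0.015 to 1.14, limma adjusted p = 0.0464). Neither call was stable. Ikzf1, which passed the filter through the wild-type pools only, was at 0.35 with no filter (limma adjusted p = 0.223), and at 0.49, 0.76 and 0.54 without wild-type pool 1, wild-type pool 2 and heterozygous pool 1, none of which passed. Ets1 was at 0.31 with no filter (limma adjusted p = 0.259) and at 0.17, 0.58 and 0.57 without wild-type pool 1, heterozygous pool 1 and heterozygous pool 2, and it also missed the threshold with a floor of 100 or without the trend. The number of probe sets that passed was 1 without wild-type pool 1 and 5 without heterozygous pool 2.

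Satb1 (difference 0.29, interval -0.072 to 0.66, limma adjusted p = 0.107), Gata3 (0.39, interval -0.29 to 1.07, limma adjusted p = 0.239) and the dimmer Ets1 probe set (0.35, interval -0.37 to 1.07, limma adjusted p = 0.307) did not pass in either direction. Satb1 lay at 3.12 and 2.87 in the heterozygous pools relative to the structural mean, against 2.56 and 2.85 in the wild-type pools, a small step beside its own 5.29-fold fall. Myb was the one member below the structural mean, at -0.39 (interval -0.79 to 0.0080, limma adjusted p = 0.0556), and it passed as a larger fall under 5 alternatives. Its sign turned to 0.23 when arrays were centred on the 6 CD3 and CD8 chain genes alone, and 7 of the 8 member probe sets, all but Myb, then fell less than those chains. Only the brighter Lef1 probe set kept its call under every alternative run for this comparison.

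**Figure D3:**
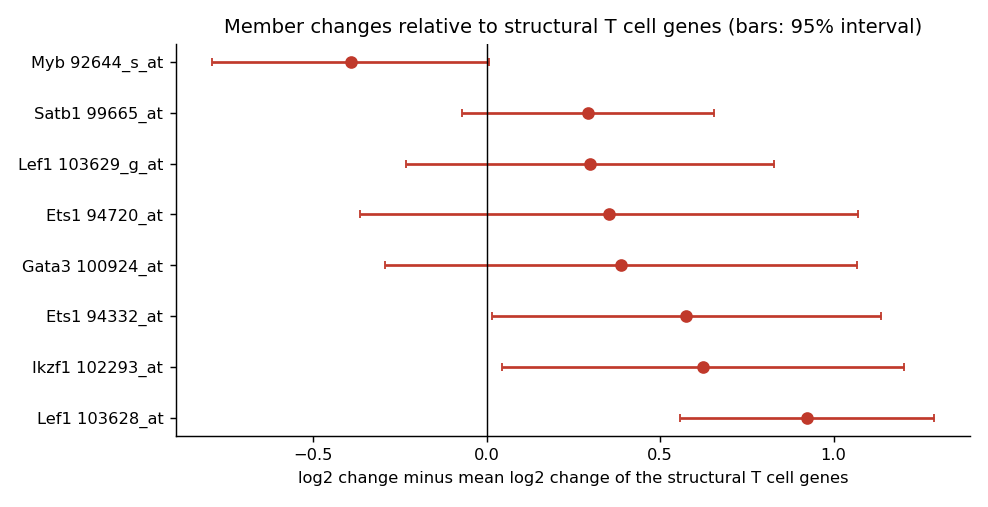
Log2 change of each tested member probe set minus the mean log2 change of the 17 structural T cell genes, with limma's 95% interval from 4 pools; values above 0 mean a smaller fall. Lef1 103628_at, Ikzf1 and Ets1 94332_at have intervals above 0, and Myb is the one point below 0.

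Relatives of the members from the same protein families were read on the same arrays. In the HMG box, GATA and Ikaros families the members fell, while the tested relatives named here had log2 changes of -0.038 to 1.23 on their brightest probe sets on the deposited scale. Beside Lef1, the HMG box gene Tcf7l1 rose 2.34-fold on its brighter probe set, with signals of 1814 and 1310 in the heterozygous pools, against 706.9 and 614 in the wild-type pools (log2 change 1.23, SE 0.22, limma adjusted p = 0.00306). The call ended with arrays centred on the sarcomere genes (log2 change 0.51, limma adjusted p = 0.0789) and with no filter (limma adjusted p = 0.0725). Its other probe set had a log2 change of 0.39 (limma adjusted p = 0.256). Tcf7l2, the relative best known from gut and pancreas, had a log2 change of 0.40 (limma adjusted p = 0.108), and -0.31 after each array was centred on the sarcomere genes; its dimmer probe set had a log2 change of 1.06 (limma adjusted p = 0.0537).

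Beside Gata3, the heart factor Gata6 rose 2.27-fold, with signals of 3307 and 2917 in the heterozygous pools, against 1474 and 1275 in the wild-type pools (log2 change 1.18, SE 0.17, limma adjusted p = 9.9e-04). Gata4, the other main GATA factor of heart muscle, had a log2 change of 0.53 (limma adjusted p = 0.115) and Gata2, known from blood precursors and endothelium, one of 0.47 (limma adjusted p = 0.130). With sarcomere centring these became -0.18 and -0.24. Ikzf4, of the Ikaros family, had signals of 505.9 and 604.7 in the heterozygous pools, against 574.2 and 561.9 in the wild-type pools (log2 change -0.038, limma adjusted p = 0.922), with overlapping pools and a sign that turned under 4 alternatives.

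Of 9 tested ETS relatives 3 fell, and the other 6 did not pass, with log2 changes of -0.23 to 0.28 on their brightest probe sets. Beside Ets1, Elf1, an ETS factor of lymphocytes, fell 5.18-fold, with signals of 126.7 and 210.2 in the heterozygous pools, against 845.8 and 843.9 in the wild-type pools (log2 change -2.37, SE 0.37, limma adjusted p = 0.00144). It passed the filter through the wild-type pools only, and with no filter its call ended (limma adjusted p = 0.0557). Ets2, a widely expressed relative, fell 2.35-fold, with signals of 1915 and 2384 in the heterozygous pools, against 5059 and 4964 in the wild-type pools (log2 change -1.23, SE 0.17, limma adjusted p = 6.9e-04). Fli1, of blood and endothelium, fell 1.67-fold (log2 change -0.74, SE 0.20, limma adjusted p = 0.0172). Its call ended when any 1 pool was left out (log2 changes -0.82 to -0.66) and with no filter (limma adjusted p = 0.0557). The 6 that did not pass were Elf4 (log2 change -0.23), Spi1 (-0.18), Gabpa (-0.078), Elk3 (0.041), Etv4 (0.25) and Spib (0.28); all had overlapping pools, and each sign turned under at least 1 alternative. Spib, a factor of B cells and plasmacytoid dendritic cells, had a dimmer probe set with a log2 change of -2.12 (limma adjusted p = 8.7e-04), so its probe sets gave different calls. The dimmer Spib probe set passed the filter through the wild-type pools only. The difference in change between a member and its relative was not tested. Over the whole list of 30 relatives, 15 genes were tested, of which 2 rose, 3 fell and 10 did not pass. Of all tested probe sets 17.9% rose and 20.4% fell, so the counts of the whole list are near those shares. The median log2 change of the 15 was 0.041. With sarcomere centring 16 were tested, of which 1 rose and 6 fell.

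**Figure D4:**
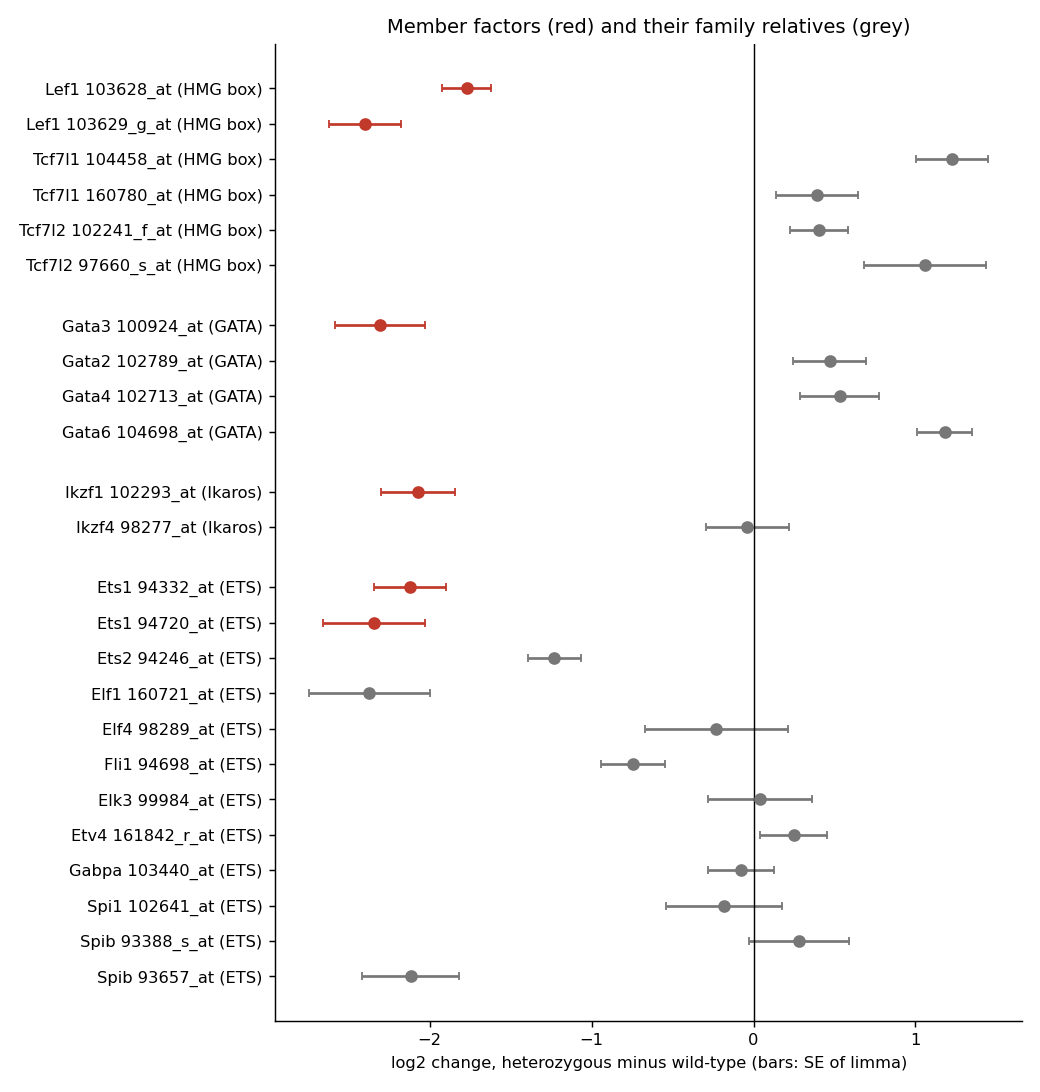
Log2 change (heterozygous minus wild-type) with limma's SE for the probe sets of Lef1, Gata3, Ikzf1 and Ets1 (red) and of all 15 tested family relatives (grey), from 4 pools. The red points lie between -2.40 and -1.77; the HMG box and GATA relatives lie above 0 on the deposited scale, where Tcf7l2, Gata2 and Gata4 turn below 0 with arrays centred on the sarcomere genes, and the ETS relatives lie on both sides of 0.

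Other regulators of lymphoid development moved in both directions. Of 50 genes on that list, 38 were on the array and 30 were tested: 11 fell, 4 rose and 15 did not pass; the median of the log2 changes was -0.30. Among all tested probe sets 20.4% fell and 17.9% rose. Of the 30, 5 passed the filter on dim probe sets through the wild-type pools only, Gfi1 and Elf1 among them. The count of falls therefore does not measure how often such regulators fall. With sarcomere centring 20 fell and 1 rose. The smallest p-values among those that fell were those of Gfi1, a repressor of blood precursors (log2 change -2.71, SE 0.23), Tcf12, the E protein HEB of early thymocytes (-1.58, SE 0.16), and Sox4, a factor of lymphocyte precursors (-1.52, SE 0.16, and -0.85 on its other probe set). Cbfb, the DNA-binding partner of the Runx factors and the brightest gene of the list, had signals of 7532 and 8584 in the heterozygous pools, against 13382 and 12156 in the wild-type pools, a log2 change of -0.67 (SE 0.14), and of -0.80 on its other probe set. The call of this small fall ended without heterozygous pool 1 (log2 change -0.57) and with no filter on dim probe sets (limma adjusted p = 0.0598).

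The 4 regulators that rose were Zbtb16, Klf2, Tcf4 and Lmo2, of which the last 3 were named after their values were seen. Zbtb16, known from innate-like T cells and also induced by glucocorticoids in many tissues, rose 3.12-fold, with signals of 8716 and 8486 in the heterozygous pools, against 2686 and 2822 in the wild-type pools (log2 change 1.64, SE 0.14, limma adjusted p = 6.5e-05); its other, dim probe set had a log2 change of 0.40 (limma adjusted p = 0.494). The others are also expressed in endothelium, and their log2 changes were 1.20 for Klf2, 0.60 for Tcf4 and 0.63 for Lmo2 (0.18 on its other probe set). The calls of these 3 ended without wild-type pool 2 and without heterozygous pool 2, at log2 changes of 0.75 and 1.33 for Klf2, 0.60 and 0.47 for Tcf4, and 0.49 and 0.65 for Lmo2. Those of Klf2 (log2 change 1.08) and Lmo2 (0.61) also ended without heterozygous pool 1, and that of Tcf4 (0.60) without wild-type pool 1. All 3 calls ended with no filter on dim probe sets too. With sarcomere centring all 3 calls ended, at 0.49 for Klf2, -0.11 for Tcf4 and -0.086 for Lmo2. The 2 genes with the largest p were Lyl1 (log2 change 0.040) and Spi1 (-0.18), both known from blood precursors and myeloid cells, with overlapping pools. Without wild-type pool 2 the list had 9 calls in place of 15, and without the filter on dim probe sets it had 5.

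Markers of several cell types moved with the members, and their part in the member changes was not tested. The 3 genes of antigen receptor recombination, Rag1, Rag2 and Dntt, which are active in immature lymphocytes, all fell, beside 20.4% of all tested probe sets. The median of their log2 changes was -3.08. Rag2 passed the filter on dim probe sets through the wild-type pools only. A second, dim Rag1 probe set did not pass (log2 change 0.61, limma adjusted p = 0.0650). Their summed signals were 6121 and 6512 in the heterozygous pools, against 46640 and 52267 in the wild-type pools. Of 9 thymic epithelial markers on the array 5 were tested, and 4 of these fell: Krt17 (log2 change -4.18), the chemokine gene Ccl25 (-3.33), Krt18 (-2.76) and Krt8 (-1.72). Krt17 passed the filter through the wild-type pools only. Aire had a log2 change of -0.33 (limma adjusted p = 0.479). The summed signals of these 5 were 3108 and 2942 in the heterozygous pools, against 18838 and 16853 in the wild-type pools. Foxn1, the defining factor of thymic epithelium, named after its values were seen, was below the filter in all pools, with 36.2 and 114.3 in heterozygous mice, against 67.2 and 36.6 in wild-type mice.

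All 19 tested cell cycle genes fell, where 20.4% of all tested probe sets fell and 17.9% rose. Aurkb and Top2a passed the filter on dim probe sets through the wild-type pools only. The median log2 change of the 19 was -2.37. Mki67, which marks dividing cells, had a log2 change of -3.40 and Stmn1, a tubulin regulator and the brightest of them, -2.82. Their summed signals were 19239 and 19433 in the heterozygous pools, against 108973 and 102356 in the wild-type pools. That left 18.3% of the wild-type sum, beside 18.3% for the members. Such sums are weighted to the brightest genes, and the median log2 change of the 6 members was -2.21. Of 7 tested B cell genes 5 fell (3 under a common median, quantile normalization or cyclic loess) and 2 did not pass. Cd22, 1 of those that fell, passed the filter through the wild-type pools only. The median of the 7 was -0.97. Of the 15 tested B cell probe sets 13 fell, beside 20.4% of all tested probe sets. Blnk did not pass on its brightest probe set, and its dimmer one had a log2 change of -2.22 (limma adjusted p = 0.00279). Ighm had a log2 change of -1.09 on its brightest probe set and of -4.92 to -1.60 on its other tested ones. The dimmer Blnk probe set and most of those other Ighm probe sets passed the filter through the wild-type pools only. The summed B cell signals were 11486 and 11388 in the heterozygous pools, against 26538 and 23535 in the wild-type pools. Macrophage genes were divided: of 9 tested, 1 rose, 1 fell and 7 did not pass, with a median of 0.052, which was -0.66 with sarcomere centring. Of 4 tested erythroid genes 2 rose and 2 did not pass, with a median of 0.61, which was -0.11 with sarcomere centring.

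Endothelial markers, read because Ets1 is also expressed in vessels, moved the opposite way. Of 10 tested genes 9 rose and 1, Pecam1, did not pass (log2 change 0.45, and -0.27 with sarcomere centring). The median was 0.94, and 4 of the 10 rose with sarcomere centring. Of all tested probe sets 17.9% rose, and with sarcomere centring 155 of 7453 did. Cdh5, the cadherin of endothelial junctions, had signals of 6501 and 6954 in the heterozygous pools, against 3147 and 3041 in the wild-type pools. Nos3, the nitric oxide synthase of endothelium, had a log2 change of 2.59. It passed the filter on dim probe sets through the heterozygous pools only, with signals of 181.2 and 140.4 in the wild-type pools. The count of rises therefore does not measure how often endothelial genes rise. The summed endothelial signals were 40949 and 36410 in the heterozygous pools, against 20597 and 19689 in the wild-type pools. Sarcomere genes, the defining genes of heart muscle, were bright in all pools and summed to 981014 and 1013463 in the heterozygous pools, against 677616 and 608994 in the wild-type pools; 15 of 20 tested rose and 5 did not pass, and their median was 0.67. Centring arrays on these sarcomere genes put the median over all tested probe sets at -0.72, and the 8 member calls held on that scale too.

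**Figure D5:**
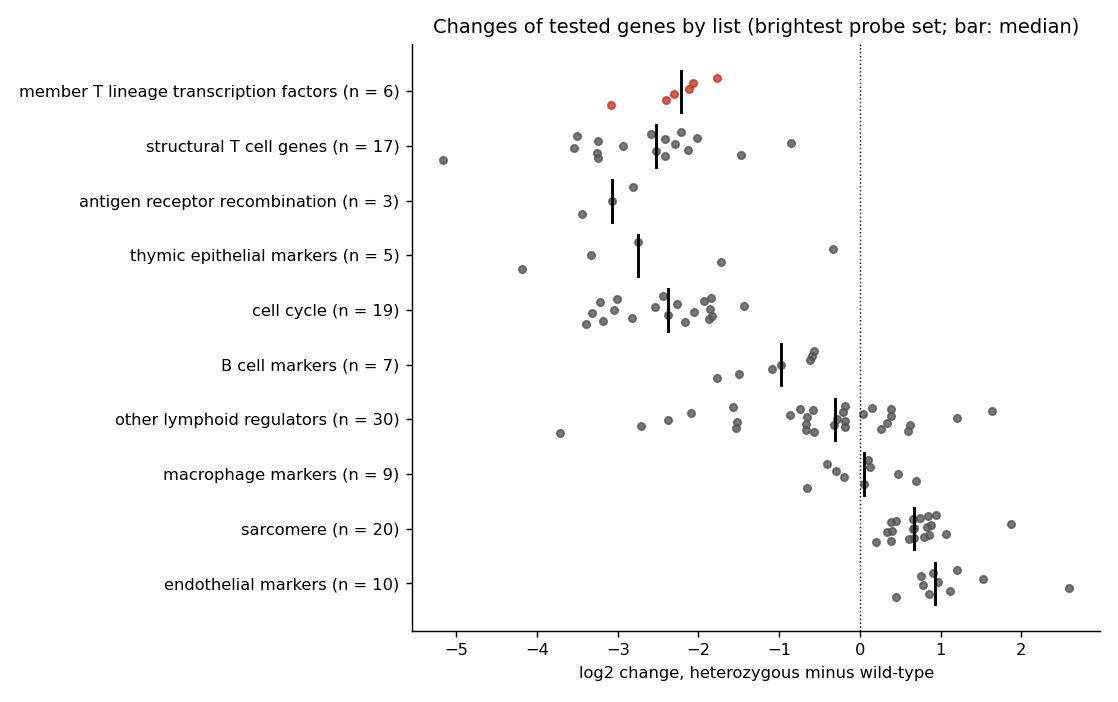
Log2 change (heterozygous minus wild-type) of every tested gene in 10 lists, on its brightest probe set, with 1 point for each gene and a bar at the list's median. The 6 members (red) lie between -3.09 and -1.77 and fall within the range of the structural T cell genes, -5.16 to -0.85. Sarcomere and endothelial genes lie above 0 on the deposited scale. Centring on the sarcomere genes sets their own mean change to 0 by construction, with 9 of the 20 above 0. On that scale 9 of the 10 endothelial genes lie above 0.

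The probe sets of other genes whose profile over the 4 pools lay nearest to the mean profile of the 6 members were those of Haus6, Nusap1, Ptpn6, Cd28 and Kif4, by Euclidean distance of centred log2 signals (0.111 to 0.165). With 4 pools this is a description only, since any probe set that falls by a like amount with close replicates lies near. The probe sets of Haus6 and Kif4 passed the filter on dim probe sets through the wild-type pools only. Haus6, Nusap1 and Kif4 act in the mitotic spindle, Ptpn6 is a phosphatase of blood cells, and Cd28 is the costimulatory receptor of T cells. The signals of Cd28 were 715 and 707.1 in the heterozygous pools, against 3586 and 4043 in the wild-type pools. Those of Nusap1 were 776 and 676.8 in the heterozygous pools, against 3146 and 3859 in the wild-type pools.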

How the data were processed

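The authors deposited 1 table of linear signal intensities, 1 value for each of 12488 probe sets on 4 arrays; the sources used here do not give the software that made them. Arrays of the deposited intensities already shared a trimmed mean (2% removed at each end, 1486.5 to 1488.1 without 66 control probe sets), so they were used as deposited. RNA was isolated with Trizol, per the labels. The gene in which the mice were heterozygous is not reported here. A floor at the 10th percentile of the 4 arrays' signals (36.25) came before log2. Controls and the 40% of probe sets with the lowest mean were left out, which left 7453. Genotype was fitted with limma 3.58.1 in R 4.3.3 (lmFit, eBayes with a trend), with two-sided p-values adjusted by Benjamini-Hochberg over all 7453 and a threshold of 0.05. With 2 pools a side, the smallest p of an exact permutation test is 0.333.

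Probe sets were named where the platform annotation gave 1 symbol (10855). Genes with several probe sets are represented in lists by the tested one with the highest mean. The members and lists were chosen with earlier results of these data known, so no list has a p of its own. Named genes are the members, and of each other list the brightest gene, up to 4 with the smallest p and up to 2 with the largest, all tested relatives, and the 5 nearest profiles. Alternatives were other scalings, floors, filters and moderation, the pool number as a block, and each pool left out. The fit was tested on simulated data. Correlation of log2 signals was 0.970 within heterozygous pools, 0.971 within wild-type pools and 0.845 to 0.856 between genotypes. For arrays, their number limits the precision. Upstream windows came from a RefSeq table (GRCm38.p6), and plots were drawn with matplotlib 3.10.9.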

Additional observations from a re-analysis of the deposited data

How the results depend on the processing

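All 8 member calls held under 13 of the 15 alternatives. The exceptions were no filter on dim probe sets, with 6 of 10 called, and the stricter filter, which left 7 tested, all lower. Of 119 recomputed member log2 changes, 117 kept direction and call, 2 lost the call and 0 reversed. Without the filter, 5 of 38 other regulators were called in place of 15 of 30, and 1206 of all probe sets were called. Leaving out 1 pool at a time gave 9 to 13 calls among the other regulators, 1707 (without heterozygous pool 2; 1708 without pool 1) to 2289 among all tested probe sets and 16 to 17 among the structural genes. Arrays centred on the sarcomere genes gave 4547 calls (155 higher). Higher calls made up 46.8% of the main calls, 62.7% with a common median and 3.41% with sarcomere centring; the median over all tested probe sets was 0.19, 0.11 and 0.04 under a common median, quantile normalization and cyclic loess, and -0.72 with sarcomere centring.

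The number of member probe sets that differed from the structural mean was 1 to 5 without 1 pool, in place of 3 (1 without wild-type pool 1, 5 without heterozygous pool 2), and 7 with CD3 and CD8 centring. Differences reversed to -0.21 (Ets1 94720_at) and -0.030 (Lef1 103629_g_at) without heterozygous pool 1 (up to 0.91 and 0.62 without another pool), to -0.047 (Gata3; up to 0.82) without wild-type pool 1 and to 0.23 (Myb) with CD3 and CD8 centring. With sarcomere centring the log2 changes of Lyl1 (-0.67), Lmo2 (-0.086), Tcf4 (-0.11), Gata2 (-0.24), Gata4 (-0.18), Tcf7l2 (-0.31), Pecam1 (-0.27), Elk3 (-0.67), Etv4 (-0.46) and Spib (-0.43) turned, as all values fall by construction. Others reversed without 1 pool: Lyl1 to -0.13 and -0.0737 without wild-type pool 2 and heterozygous pool 1 (range up to 0.21), Spi1 to 0.27 and 0.066 without wild-type pool 2 and heterozygous pool 2 (range down to -0.63), and Pecam1 to -0.19 without wild-type pool 1 (range up to 1.08). Ikzf4 reversed to 0.14 under a common median and under quantile normalization, to 0.078 under cyclic loess and to 0.0903 without heterozygous pool 1 (range down to -0.17). Gabpa reversed to 0.10 under a common median and 0.034 under quantile normalization. Without 1 pool, Gabpa ranged between -0.30 and 0.14, Elf4 between -0.87 and 0.41, Elk3 between -0.017 and 0.099 and Spib between -0.14 and 0.71. Where no construction is named, the cause was not tested. The pool number as a replicate block gave 8 member calls, 17 structural, 16 other regulators, 3035 of all tested probe sets and 4 member probe sets apart from the structural mean, Myb now among them (log2 difference -0.39, limma adjusted p = 0.0267). Deviations of same-numbered pools correlated at 0.158, and the labels do not say that the numbers pair the pools.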
